A study of Mus musculus with 8 samples.

Results

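The 10 genes described here carry a cell into mitosis and out of it again: the cyclins Ccna2, Ccnb1 and Ccnb2, their kinase Cdk1, the inhibitory kinase Wee1, the activating phosphatases Cdc25b and Cdc25c, the kinases Plk1 and Aurka, and Cdc20. They were found by their symbols on the primary chromosomes of a table of 52778 rows, where each of the 10 stood on 1 row. RNA had been sequenced from ventricular heart tissue of mouse (Mus musculus) embryos at embryonic day 11.5. In the 4 libraries labelled cKO, floxed alleles of Rps19bp1, whose protein sits in the nucleolus and partners with ribosomal protein S19, had been recombined by Cre under Xmlc2, which the series text describes as cardiomyocyte-specific; bulk RNA does not show which cells the remaining Rps19bp1 RNA comes from. The 4 remaining libraries are labelled control, with no allele named for them in the labels. The genotype field gives C57BL/6 WT for all 8 libraries, embryos received no treatment, and the series text speaks of separate biological replicates.

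Mitotic entry turns on the kinase Cdk1, which is active only when bound to an A- or B-type cyclin. Wee1 phosphorylates Cdk1 and holds it inactive, and the Cdc25 phosphatases take that phosphate off again. Aurka activates Plk1, and Plk1 in turn promotes the activation of Cdc25 and the removal of Wee1. Cells leave mitosis when Cdc20 directs the anaphase-promoting complex (APC/C), a ubiquitin ligase, to the mitotic cyclins. Embryonic ventricular muscle grows mainly by division of its cardiomyocytes, so these genes are active in this tissue.

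All 10 genes were lower in cKO. Their levels fell to between 73.9% of the control mean (Ccnb2) and 81.6% (Cdk1), and each passed the test, a limma model of log2(TPM + 1) over 15541 rows with a Benjamini-Hochberg adjusted p under 0.05. TPM is a share of a library's transcripts corrected for transcript length. Among all tested rows 6.4% were called, 4.23% lower in cKO and 2.16% higher. The median log2 change of the 10 genes was -0.36, beside -0.02 for all tested rows. In 9 of the 10 genes every cKO library was below every control library, where 10.3% of all tested rows showed that order. The 10 genes were chosen with earlier results of these data known, so these shares stand beside them as a description only. In bulk tissue, fewer dividing cells and less of these RNAs per dividing cell cannot be told apart.

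The targeted gene was examined first. Rps19bp1 stood at 40.9, 44.2, 34.7 and 40.05 TPM in control libraries 1 to 4 and at 15.2, 11.8, 13.7 and 19.2 TPM in cKO libraries 1 to 4, so the libraries matched their labels. The labels name heart tissue in one place and cortical neurons in the extraction text. The sum of 16 cardiomyocyte markers ran from 56067 to 61328 TPM over the 8 libraries, while the sum of 10 neuronal markers ran from 9.79 to 18.7 TPM, with Neurod6 at 0 throughout. Between 15336 and 15752 rows per library reached 1 TPM, and the read depth behind the values is unknown. Mitochondrial transcripts took 11.4% to 12.2% of TPM in control and 13.2% to 16.2% in cKO, with the highest share in cKO replicate 3. A larger share of this kind lowers every other TPM value slightly. Of 994 rows called as deposited, 33.8% were higher in cKO. After quantile normalization 763 rows were called, 50.2% of them higher, and after median-ratio scaling 802, 47.8% of them higher. With mitochondrial and globin genes taken out and the rest rescaled, 775 were called, 50.1% of them higher. Rows called lower went from 658 to 380, 419 and 387 in turn.

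Promoter sequence is shown because members of this group are a textbook case of genes switched on together late in the cell cycle. Their promoters often hold CCAAT boxes, bound by the factor NF-Y, near a cell cycle genes homology region (CHR). The CHR is bound by MuvB complexes, which repress these genes in resting cells and, joined by Mybl2 and Foxm1, activate them before mitosis. RefSeq promoter windows on GRCm38.p6, from 250 bases before to 50 bases after a gene's start, were matched by symbol for 7 of the 10 genes and not for Ccna2, Cdc25c and Wee1. The 120 bases just before the start are printed below for 4 genes with paired CCAAT boxes and for Cdc25b, the gene among the 7 with no CHR match anywhere in its window. They read 5′ to 3′ along the gene, with capitals on CCAAT, on the CHR letters TTTGAA or TTTAAA and on the E2F core GGCGGG, each searched on both strands.
Ccnb1: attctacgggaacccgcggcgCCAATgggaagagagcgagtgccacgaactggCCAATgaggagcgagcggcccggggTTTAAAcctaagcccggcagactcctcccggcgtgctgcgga
Ccnb2: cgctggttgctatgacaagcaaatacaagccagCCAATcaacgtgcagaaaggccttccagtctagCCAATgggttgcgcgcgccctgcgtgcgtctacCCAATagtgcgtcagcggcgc
Cdk1: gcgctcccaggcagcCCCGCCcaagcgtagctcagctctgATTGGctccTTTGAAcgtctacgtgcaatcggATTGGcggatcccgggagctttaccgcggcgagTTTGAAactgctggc
Aurka: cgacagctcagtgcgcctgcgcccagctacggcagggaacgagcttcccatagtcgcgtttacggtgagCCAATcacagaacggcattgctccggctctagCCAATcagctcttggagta
Cdc25b: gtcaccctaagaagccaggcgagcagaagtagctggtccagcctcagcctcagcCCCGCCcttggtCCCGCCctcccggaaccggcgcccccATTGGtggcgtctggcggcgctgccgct

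These stretches lie at chr13:100786487-100786606 (minus strand) for Ccnb1, chr9:70421555-70421674 (minus strand) for Ccnb2, chr10:69352913-69353032 (minus strand) for Cdk1, chr2:172370571-172370690 (minus strand) for Aurka and chr2:131186828-131186947 (plus strand) for Cdc25b. The RefSeq starts of Aurka and Cdc25b lie 316 and 512 bases inside the rows of the expression table. All 7 windows held CCAAT, which 37.4% of all 32851 windows held, and 5 of the 7 held it at least 2 times, against 11.7% of all windows. TTTGAA stood in the windows of Aurka, Ccnb2, Cdc20, Cdk1 and Plk1 (17.9% of all windows) and TTTAAA in those of Aurka, Ccnb1 and Plk1 (13.2% of all windows). The CHR matches of Ccnb2 (first bases at -167 and 5 from the start) and of Aurka (18 and 33) lie outside the printed stretches. A CHR match together with CCAAT was present in 6 of the 7 windows and in 10.7% of all windows. The E2F core GGCGGG was present in all 7 windows (35.3% of all windows), and the longer E2F site GGCGGGAA, which contains that core, in 0 of the 7 (2.19% of all windows).

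The CCAAT boxes had a similar spacing in 4 of the windows. Counted between first bases on 1 strand, neighbouring boxes stood 32 bases apart in Ccnb1 (at -99 and -67), 32 in Aurka (-51 and -19), 32 in Cdk1 (-80 and -48, on the opposite strand to the gene) and 33 in Ccnb2 (-87, -54 and -21). In Cdc20 they stood 45 bases apart (-53 and -8). A pair 31 to 33 bases apart was present in 0.794% of all windows, a spacing chosen for counting after these windows had been read. Of 10901 tested genes outside the 10 with any window, 4.53% fell in cKO. That share was 5.7% of 2456 genes with a CHR match, 5.2% of 4677 with CCAAT and 6.84% of 1023 with both. It was 10.1% of 178 genes with a CCAAT pair at that spacing and 23.7% of the 38 that also had a CHR match (9 genes, with 1 higher), a small group whose spacing was taken from the 10 genes. Genes of the mitotic lists described further on were not taken out of these counts. A match of letters is a description of the sequence and does not show that a factor binds there.

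Ccna2 and Ccnb1 were the most abundant of the 10. Ccna2 (chr3:36564865-36573038), the A-type cyclin of S phase and early mitosis, stood at 141, 145, 136 and 142 TPM in control libraries 1 to 4 and at 108, 110.04, 93.2 and 113 TPM in cKO libraries 1 to 4. Every cKO library lay below every control library, with cKO replicate 3 the lowest. On the log2 scale the change was -0.41 (SE 0.0615, limma adjusted p = 0.00729).

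Ccnb1 (chr13:100778739-100786486), the main B-type cyclin of mitotic entry, stood at 133, 115, 119.7 and 128 TPM in control and at 106, 106, 85.3 and 96.8 TPM in cKO, again with cKO replicate 3 the lowest and no overlap. Its log2 change was -0.33 (SE 0.0766, limma adjusted p = 0.0362). Ccnb2 (chr9:70407689-70421554), the B-type cyclin found at the Golgi apparatus, stood at 114, 103, 101 and 106 TPM in control and at 80.6, 79.9, 72.8 and 79.5 TPM in cKO. It had the largest change of the 10, -0.43 (SE 0.0536, limma adjusted p = 0.00281), and its highest cKO library (80.6 TPM) lay below its lowest control library (101 TPM). A pseudogene row of Ccnb1 held 1.83 to 4.04 TPM and one of Ccnb2 was listed at 0 in all libraries.

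Cdk1 (chr10:69335146-69352912), the catalytic partner of these cyclins, stood at 65.04, 61.2, 63.1 and 63.8 TPM in control and at 56.1, 53.8, 45.5 and 51.2 TPM in cKO. The groups did not overlap, and the control libraries were close together (63.3 ± 1.61 TPM, SD, n = 4) compared with cKO (51.6 ± 4.55 TPM, SD, n = 4). Its log2 change of -0.29 (SE 0.0634, limma adjusted p = 0.0283) was the smallest of the 10.

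Wee1 (chr7:110122059-110143299), the kinase that restrains Cdk1, fell together with the activators. It stood at 41.8, 44.004, 41.3 and 41.3 TPM in control and at 32.04, 32.1, 32.97 and 32.6 TPM in cKO, the tightest cKO group of the 10 (32.4 ± 0.451 TPM, SD, n = 4). Its log2 change was -0.37 with the smallest adjusted p of the 10 (SE 0.0435, limma adjusted p = 0.00237). Unlike the cyclins and Cdk1, Wee1 was not lowest in cKO replicate 3, where it had its highest cKO value.

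The phosphatases that oppose Wee1 were the least abundant of the group. Cdc25b (chr2:131186436-131198511), which starts Cdk1 activation at the centrosomes, stood at 24.1, 25.1, 26.3 and 27.8 TPM in control and at 21.7, 21.8, 19.7 and 19.6 TPM in cKO (log2 change -0.30, SE 0.0624, limma adjusted p = 0.0232). Cdc25c (chr18:34732993-34751564), which amplifies Cdk1 activation at mitotic entry, stood at 23.2, 19.1, 20.4 and 19.2 TPM in control and at 16.05, 15.9, 15.7 and 13.96 TPM in cKO (log2 change -0.39, SE 0.0738, limma adjusted p = 0.0179). In both genes all cKO libraries lay below all control libraries.

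Plk1 (chr7:122159435-122169884), the polo-like kinase of mitotic entry and spindle assembly, was the 1 gene of the 10 whose groups overlapped. It stood at 84.4, 70.9, 84.4 and 80.8 TPM in control and at 71.8, 66.1, 57.1 and 57.04 TPM in cKO, so that cKO replicate 1 lay above control replicate 2. Its log2 change was -0.35, and its standard error of 0.0854 was the largest of the 10 (limma adjusted p = 0.0419). Aurka (chr2:172356190-172370886), the centrosomal kinase that activates Plk1, stood at 71.6, 68.9, 74.7 and 65.7 TPM in control and at 59.6, 62.4, 48.7 and 53.9 TPM in cKO (log2 change -0.32, SE 0.0771, limma adjusted p = 0.0383). Here the groups did not overlap.

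Cdc20 (chr4:118432901-118437343), the APC/C activator that triggers anaphase, stood at 109, 105, 103 and 109 TPM in control and at 82.7, 82.9, 73.7 and 88.7 TPM in cKO. All cKO libraries lay below all control libraries, and the log2 change was -0.38 (SE 0.0583, limma adjusted p = 0.00777). Ccna2, Cdc25c, Aurka and Cdc20 each overlap a row on the opposite strand, by 863, 647, 242 and 53 bases in turn, so a part of their reads is uncertain if counting ignored strand.

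**Figure D1:**
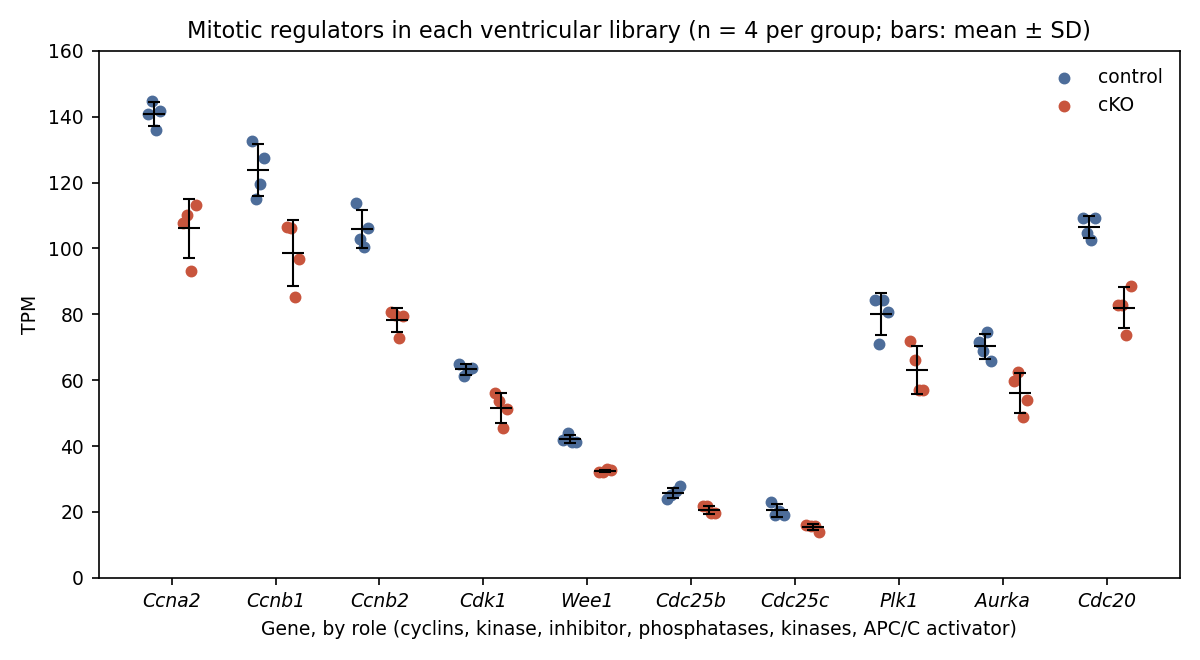
Level of each of the 10 genes in TPM (vertical axis, linear from 0) in the 4 control and 4 cKO libraries; points are libraries in replicate order, black bars the mean ± SD. Every gene has a lower cKO mean, and the point clouds touch in Plk1 alone, where 71.8 TPM in cKO replicate 1 exceeds 70.9 TPM in control replicate 2.

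The order of the levels was the same in both groups: Ccna2, Ccnb1, Cdc20, Ccnb2, Plk1, Aurka, Cdk1, Wee1, Cdc25b and Cdc25c, from 141 to 20.5 TPM in control means and from 106 to 15.4 TPM in cKO means. In control, the ranges of the 4 libraries overlapped for the neighbours Cdc20 and Ccnb2 and for Plk1 and Aurka. In cKO they also overlapped for Ccna2 and Ccnb1, Ccnb1 and Cdc20, and Aurka and Cdk1. The cKO libraries were not alike: cKO replicate 3 was the lowest of its group for 6 of the 10 genes, cKO replicate 4 for 3 and cKO replicate 1 for 1. The mean log2 level of the 10 genes, centred per gene, was -0.11, -0.12, -0.29 and -0.20 in cKO libraries 1 to 4 and 0.22, 0.13, 0.17 and 0.18 in control libraries 1 to 4. The library with the lowest mean, cKO replicate 3, is the one with the highest mitochondrial share (16.2%). With mitochondrial and globin genes taken out and the rest rescaled, the median change of the 10 genes was -0.32 and 9 were called.

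Over 20 alternatives the 10 genes were lower in cKO each time, with a median log2 change from -0.37 to -0.30. Ccna2, Ccnb2, Wee1 and Cdc20 passed the test in all 20 alternatives, with limma adjusted p no higher than 0.0325. Cdc25c passed whichever library was left out (limma adjusted p up to 0.0494). Leaving out single libraries ended calls in the other 5 genes. Leaving out control libraries 1 to 4, one at a time, left 6, 6, 5 and 5 of the 10 genes called, and leaving out cKO libraries 1 to 4 left 8, 9, 6 and 7. Among these 8 fits Ccnb1 and Aurka were called only without cKO replicate 2 (limma adjusted p = 0.0405 and 0.0305), and otherwise reached up to 0.0901 and 0.103. Plk1 was called only without control replicate 2 (limma adjusted p = 0.0415) and without cKO replicate 1 (0.0327). Cdk1 lost its call without each control library in turn (limma adjusted p from 0.0542 to 0.0746), and Cdc25b without control replicates 2, 3 and 4 and cKO replicate 3 (0.0504 to 0.0682).

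**Figure D2:**
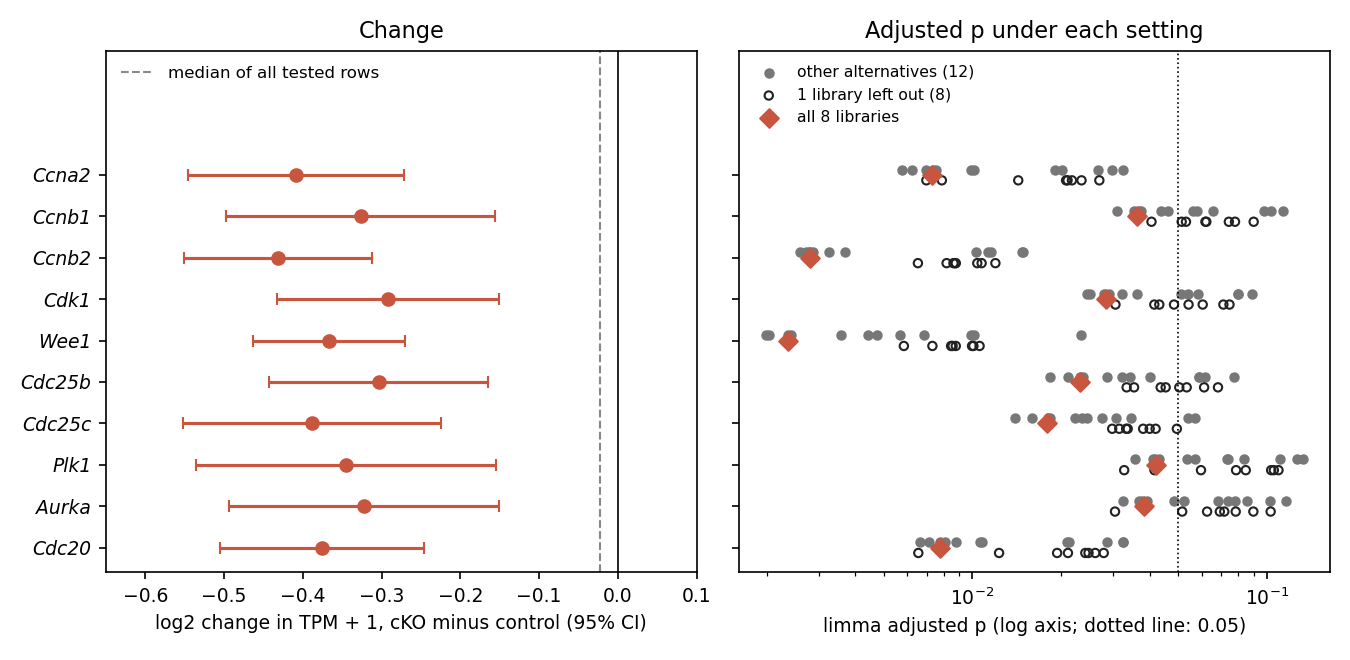
Left, log2 change in TPM + 1 (cKO minus control) of the 10 genes with 95% confidence intervals; the dashed line is the median of all tested rows (-0.02). Right, limma adjusted p on a log axis with all 8 libraries (diamonds), with 1 library left out (open circles) and under 12 other alternatives (grey points); the points of Ccna2, Ccnb2, Wee1 and Cdc20 all lie left of the dotted line at 0.05.

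Whether the genes fell unequally was asked with 12 ratios taken within a library, which do not depend on how a library is scaled. An exact two-sided permutation test over 70 assignments of the libraries found 0 of 12 ratios past an adjusted p of 0.05, and 0 at an unadjusted p under 0.05. The smallest p this design can give is 0.0286, so after adjustment over 12 ratios none can pass unless at least 7 reach that p, and the adjusted count says little. The balance of inhibitor and activators was not past the threshold. Cdc25b stood at 0.612 times the Wee1 level in control and 0.638 times in cKO (geometric means), a log2 difference of 0.06 with a standard error of 0.0772 (exact permutation p = 0.486). For Cdc25c over Wee1 the ratios were 0.485 and 0.474, a difference of -0.03 (SE 0.0907, exact permutation p = 0.771).

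The ratio of Ccna2 to Cdk1 had the smallest p of the 12. It was 2.22 in control and 2.05 in cKO, a log2 difference of -0.11 (SE 0.0520, exact permutation p = 0.0857, adjusted p = 0.686), and the groups overlapped. Ccnb1 over Ccnb2 was 1.17 in control and 1.26 in cKO, a difference of 0.11 (SE 0.0506, exact permutation p = 0.114). Ratios to Mki67, the nuclear protein used to mark dividing cells, asked whether the regulators fell more than that marker. Mki67 itself stood at 128, 114, 124 and 123 TPM in control and at 91.4, 93.7, 88.9 and 93.9 TPM in cKO, which gave a change of -0.40 on the log2 scale (SE 0.0467, limma adjusted p = 0.00205). The log2 difference was 0.08 for Ccnb1 over Mki67 (SE 0.0693, exact permutation p = 0.343) and 0.03 for Wee1 over Mki67 (SE 0.0596, exact permutation p = 0.6). The adjusted p of all 12 ratios lay between 0.6857 and 0.8286, which does not show that the ratios are equal.

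**Figure D3:**
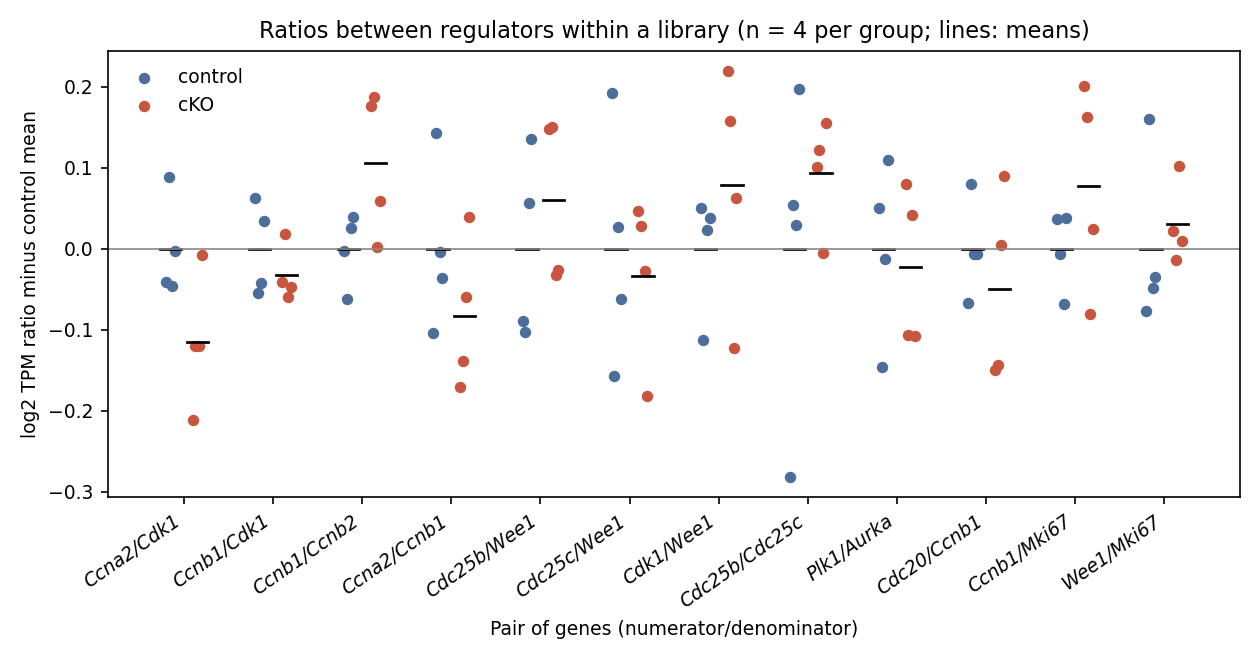
Log2 TPM ratio of 12 gene pairs in each library, minus the control mean of the pair; points are the 4 control and 4 cKO libraries and black lines group means. The cKO means lie between -0.11 (Ccna2/Cdk1) and 0.11 (Ccnb1/Ccnb2), and the groups overlap in every pair.

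The genes around these regulators were read from 6 lists with 69 tested genes, of which 14 fell, 0 rose and the median log2 change was -0.14, beside the 4.23% lower, 2.16% higher and median of -0.02 over all tested rows. Apart from these lists, 6 proliferation reference genes were tested, of which 4 fell (Mki67, Top2a, Mcm2 and Mcm3) and 0 rose. Their median log2 change was -0.35, beside -0.36 for the 10 regulators. The lists were also chosen with earlier results of these data known, so their counts are a description and no independent test. With 3 to 21 tested genes a list, 1 gene moves a list's share by several percentage points. Among 21 tested genes of mitotic entry, 5 fell (Cdc25a, Tpx2, Cks2, Cdk2 and Cenpf), 0 rose and the median was -0.18. Cenpf, a kinetochore protein that accumulates late in the cell cycle, fell from 33.3 ± 1.001 to 25.95 ± 1.23 TPM (mean ± SD over 4 libraries; log2 difference -0.35 at a limma adjusted p of 0.00605). Cks2, a small Cdk1-binding subunit, fell from 142 ± 11.7 to 113 ± 8.60 TPM (mean ± SD over 4 libraries; log2 difference -0.33). Cdc25a, the phosphatase that also serves the start of S phase, fell from 38.4 ± 1.94 to 32.6 ± 0.823 TPM (mean ± SD over 4 libraries; log2 difference -0.23). The calls of Cks2 and Cdc25a were each lost under 10 of the 20 alternatives (limma adjusted p up to 0.0875 and 0.0860). The other Wee1-family kinase, Pkmyt1, had a log2 change of -0.28 that did not pass (limma adjusted p = 0.0744) and is named here after its value was seen.

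Genes for the APC/C itself were read next. Of 14 tested subunits 0 were called by limma in either direction and 2 had an unadjusted p under 0.05, with a median log2 change of -0.04. Over all tested rows 6.4% were called, so a count of 0 in 14 is near the background. The smallest p belonged to Anapc7 (-0.12, limma adjusted p = 0.123), Cdc27 (-0.10, limma adjusted p = 0.181, a row that overlaps the abundant Myl4 on the opposite strand) and Anapc5 (-0.14, limma adjusted p = 0.240). Among 12 tested partners of the complex and anaphase genes, 5 fell (Fzr1, Ube2c, Ube2s, Ppp1cc and Cdca3), 0 rose and the median was -0.24. Ube2c, the ubiquitin-conjugating enzyme that works with the APC/C, fell from 327 ± 13.5 to 238 ± 20.5 TPM (mean ± SD over 4 libraries; log2 difference -0.46 at a limma adjusted p of 0.00573). Cdca3, which helps degrade Wee1, fell from 97.7 ± 2.51 to 74.99 ± 4.00 TPM (mean ± SD over 4 libraries; log2 difference -0.38). Ppp1cc, a catalytic subunit of the phosphatase that reverses mitotic phosphorylation, fell from 206 ± 5.37 to 171 ± 6.04 TPM (mean ± SD over 4 libraries; log2 difference -0.27). Securin, encoded by Pttg1, stood at 0.08 on the log2 scale (limma adjusted p = 0.574) and is named after its value was seen.

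Of 15 tested regulators of mitotic transcription, 2 fell, 0 rose and the median log2 change was -0.15. These were Mybl2 and Foxm1, known as activators of late cell cycle genes. Mybl2 fell from 21.997 ± 1.49 to 16.9 ± 1.35 TPM (mean ± SD over 4 libraries; log2 difference -0.36 at a limma adjusted p of 0.0197) and Foxm1 from 41.4 ± 3.73 to 33.7 ± 1.62 TPM (mean ± SD over 4 libraries; log2 difference -0.29 at a limma adjusted p of 0.0398). The call of Foxm1 was lost under 14 of the 20 alternatives (limma adjusted p up to 0.114) and that of Mybl2 under 3. E2f4, a factor of the repressing complex in resting cells, had a log2 change of -0.17 that did not pass (limma adjusted p = 0.0747).

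In the chromosomal passenger complex, formed by Aurka's relative Aurkb and its partners, 2 of 4 tested genes fell. Aurkb itself stood at -0.24 on the log2 scale and did not pass (limma adjusted p = 0.0820). Cdca8 fell from 106 ± 4.11 to 77.8 ± 6.64 TPM (mean ± SD over 4 libraries; log2 difference -0.44 at a limma adjusted p of 0.00624) and Incenp from 64.2 ± 4.89 to 53.5 ± 1.70 TPM (mean ± SD over 4 libraries; log2 difference -0.26 at a limma adjusted p of 0.0354), the latter call being lost under 14 of the 20 alternatives. Birc5 stood at -0.30 on the log2 scale and did not pass (limma adjusted p = 0.0605). Of the other polo-like kinases, 0 of 3 tested were called by limma and 2 had an unadjusted p under 0.05. Plk4, which drives centriole duplication, stood at -0.29 on the log2 scale (limma adjusted p = 0.0534), Plk2, a stress-induced relative, 0.19 (limma adjusted p = 0.115) and Plk3 0.06 (limma adjusted p = 0.833).

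**Figure D4:**
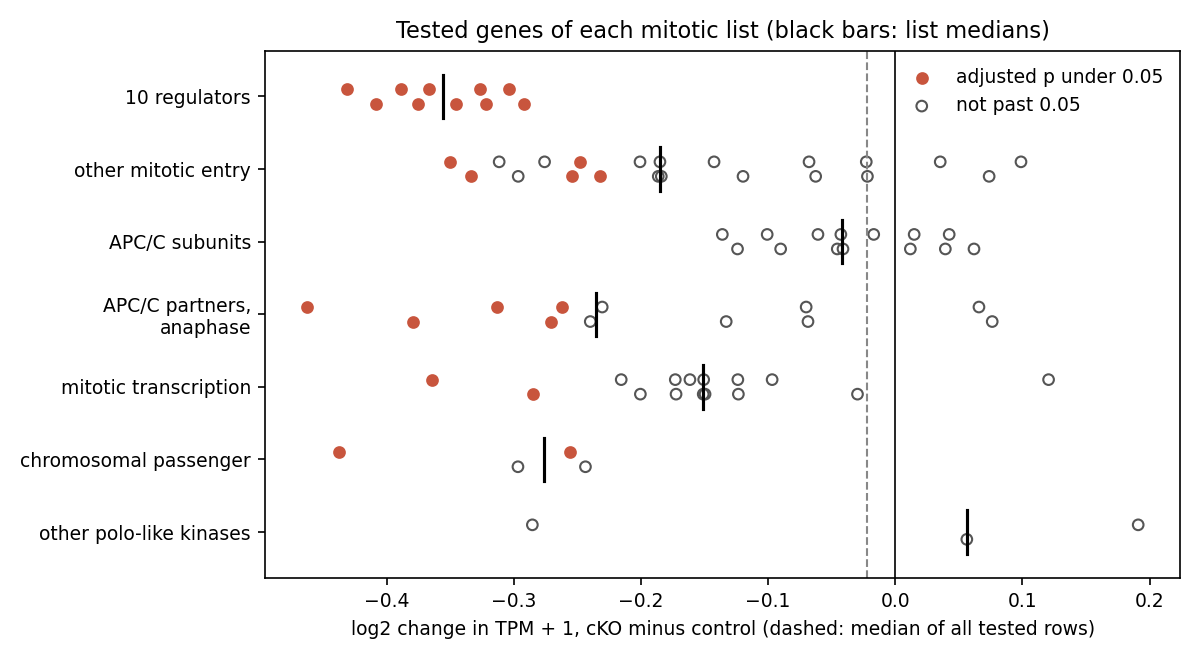
Log2 change in TPM + 1 (cKO minus control) of each tested gene in the group of 10 and in 6 lists of related genes; filled points have a limma adjusted p under 0.05, black bars are list medians and the dashed line is the median of all tested rows. The 10 regulators lie between -0.43 and -0.29, and the 14 APC/C subunits between -0.14 and 0.06, a difference between lists that was not tested.

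Other rows were ranked by likeness to the mean of the 10 genes, leaving out symbols of Gm with a digit or ending in Rik. The ranked rows whose levels over the 8 libraries ran most like that mean were Kif11, Hmgb2, Rrm2, Arpin, Cdc45, Cdca8, Kif4 and Esco2, with Pearson r from 0.991 to 0.995. This r includes the difference between the groups. With each group's mean removed, r lay between 0.902 (Kif4) and 0.982 (Hmgb2) for these 8 rows, over the same libraries that share their scaling. Kif11, a motor that separates spindle poles, fell from 62.2 ± 1.66 to 46.8 ± 3.53 TPM (mean ± SD over 4 libraries; log2 difference -0.40). Hmgb2, a chromatin protein, fell from 176 ± 10.2 to 126 ± 11.9 TPM (mean ± SD over 4 libraries; log2 difference -0.47). Rrm2, the ribonucleotide reductase subunit of S phase, fell from 193 ± 8.15 to 138 ± 10.3 TPM (mean ± SD over 4 libraries; log2 difference -0.49). The limma adjusted p of these 3 genes lay between 0.00282 and 0.00733. All 8 rows were picked for likeness to a mean that differs between the groups, so a fall with a small p follows largely from the choice. The ranking r also holds the deviations within groups, so a high r with group means removed follows partly from the choice too. The 10 genes were not ranked this way, so their r cannot be set against that of the 8 rows. Measured against the mean of the other 9, with group means removed, r ran from -0.65 for Wee1, 0.26 for Cdc25c and 0.36 for Cdc25b to 0.97 for Cdk1.

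Dividing cells of several kinds share these 10 RNAs, so markers of those cells were read beside them. The sum of 14 erythroid markers ran from 2053 to 7283 TPM in control and from 1822 to 3838 TPM in cKO (exact permutation p = 0.486, n = 4 per group). Its largest parts were Hbb-y (709 to 2857 TPM over all libraries) and Hba-x (459 to 1872 TPM). Of the 14 tested genes 13 were lower in cKO, with 1 called. Their median log2 change was -0.39, beside -0.36 for the 10 genes and -0.02 for all tested rows. Without control replicate 4 the control sums ran from 2053 to 3360 TPM, and the 10 genes kept a median log2 change of -0.36, with 5 called. The sum of 10 endothelial markers was higher in cKO (824 to 932 TPM against 768 to 820), with 0 of 10 called. Mesenchymal markers were also higher (1251 to 1390 TPM against 903 to 1088, 4 of 10 called), as were epicardial markers (432 to 532 TPM against 368 to 427, 4 of 8 called). The endothelial, mesenchymal and epicardial sums of the 2 groups were each fully apart (exact permutation p = 0.0286, n = 4 per group). That is the smallest p the design can give, and the p-values of the marker sums were not adjusted. Among all tested rows, 4.23% were called lower in cKO and 2.16% higher, and 15.6% had groups that did not overlap, in either direction. That last share is of single rows and not of sums over several genes. Macrophage markers ran from 71.2 to 126 TPM in cKO and from 67.4 to 95.2 TPM in control, with 0 of 8 tested genes called and Ptprc and Adgre1 averaging under 1 TPM. The sum of the 16 cardiomyocyte markers did not differ beyond the spread between libraries (56067 to 59094 TPM in cKO, 56399 to 61328 TPM in control, exact permutation p = 0.800, n = 4 per group), with 1 of 16 called, lower. Of these 16 genes 12 had a change below 0, with a median log2 change of -0.05. Among all tested rows 55.8% were below 0, with a median of -0.02. The largest parts of the sum were Actc1 (13929 to 16328 TPM over all libraries) and Myl2 (8890 to 10413 TPM). With the erythroid score as a covariate the median change of the 10 genes was -0.33 and 5 were called. The part of the other cell types in the fall of the 10 genes was not tested.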

How the data were processed

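TPM values of the deposited table were used as given, and each of the 8 columns sums to 1000000 within 1 TPM. Per the submitters' processing notes, FastQC, Trim Galore 0.6.7, HISAT2 2.2.1, StringTie 2.2.1, featureCounts and DESeq2 were named with the build GRCm38. Which of them made the TPM, the annotation and the use of strand are not given in the sources used here. The series text names a poly(A) mRNA kit and the extraction text depletion of ribosomal RNA.

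Groups and replicate numbers came from the sample titles. The 15541 of 52778 rows that averaged 1 TPM or more were fitted as log2(TPM + 1) with group as the only term in limma 3.58.1 (R 4.3.3, lmFit and eBayes with a trend). P-values are two-sided and adjusted by Benjamini-Hochberg over all tested rows. All 10 genes passed the filter. Fold changes on this scale understate the change of low genes. Log2 ratios and marker sums were tested with an exact permutation test. Its p-values were adjusted over the 12 ratios and not adjusted for the marker sums. Both procedures were tested on simulated data. TPM keeps no depth, so no counting error is given.

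The 10 genes, the lists and the pairs were chosen with earlier results of these data known. Named genes were the 10, Rps19bp1, Mki67, the 3 genes with the smallest p of each list, every list gene called higher, and the 8 rows, from 5 TPM on average, most correlated with the mean of the 10. Symbols starting with Gm and a digit or ending in Rik were left out of that ranking. Alternatives were 2 pseudocounts, 2 filters, 3 scalings, no trend, array weights, a replicate block, an erythroid or Y-linked score as covariate, and leaving out each library. The sum of 4 Y-linked genes was 79.8 to 117 TPM in control and 87.5 to 126 TPM in cKO. Promoter windows came from RefSeq, and figures were drawn with matplotlib 3.10.9.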

Additional observations from a re-analysis of the deposited data

Results flagged for a closer look

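A wide gap between 1 library and the other 3 of its group was looked for in 98 groups of 4 values, and 7 were found, where chance gives about 1 in 20 groups. In cKO replicate 3 the low values were 72.8 TPM for Ccnb2, 38.7 TPM for Anapc7, 210.3 TPM for Anapc5, 207 TPM for Ube2c and 24.2 TPM for Kif4. Cdc25c had a low value of 13.96 TPM in cKO replicate 4. The log2 ratio of Cdk1 to Wee1 was low in control replicate 2, at 0.48. Without cKO replicate 3 the log2 change was -0.40 for Ccnb2 (limma adjusted p = 0.00817) and without cKO replicate 4 it was -0.34 for Cdc25c (limma adjusted p = 0.0315).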

How the results depend on the processing

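The direction of the 10 genes held under all 20 alternatives, and the number called varied. It was 10 as reported, 4 with no filter on low values, 6 after quantile normalization, 6 without a trend, 5 with the erythroid covariate, 4 with the Y-linked covariate and between 5 and 9 when single libraries were left out. The 994 called rows became 347 with no filter, 609 without a trend, 512 and 337 with the erythroid and Y-linked covariates, and 390 to 938 with 1 library left out. The 14 called genes of the 6 lists became 6, 9, 7, 6 and 6 with no filter, after quantile normalization, without a trend and with the erythroid and Y-linked covariates, and 6 to 11 with 1 library left out. With no filter 32491 rows were tested and with a library left out 7 libraries remain; the causes of the other shifts were not tested.

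The titles give replicate numbers and name no pairing. Same-numbered cKO and control libraries had correlations of deviations from -0.09 to 0.07, and 2 of 4 cKO libraries correlated best with their own number. With 4 libraries a group these values do not settle whether libraries were paired. With the replicate block 420 rows, 5 of the 10 genes and 8 list genes were called. For the ratios a paired sign test could not reach the threshold, and 0 of 12 passed.

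Values that changed sign were all far from the threshold. With single libraries left out, Plk3 ran from -0.026 (without control replicate 2; -0.024 without cKO replicate 1) to 0.13. The difference of Cdc25c over Wee1 ran from -0.086 to 0.031 (without control replicate 1; 0.016 without cKO replicate 4), that of Cdc25b over Cdc25c from -0.0006 (without control replicate 1) to 0.16, and that of Plk1 over Aurka from -0.072 to 0.013 (without control replicate 4; 0.0048 and 0.0052 without cKO replicates 2 and 4).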
